A study of Mus musculus with 12 samples.

Results

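Mouse embryonic stem cells of the CCE line were profiled at day 6 and at day 4 after transduction with a pLKO.1-puro lentivirus that expressed a short hairpin RNA against the long noncoding RNA TUNA. The comparison takes 6 of the 12 libraries of the series, 3 of day 6 and 3 of day 4. Of 37477 gene rows, 8111 had at least 10 normalized counts in 3 or more of these 6 libraries and were tested. All cells grew with serum, with LIF (which blocks their differentiation) and under puromycin, so day 6 and day 4 share the vector, the selection and the hairpin and differ in time. The 6 remaining libraries carried the TUNA hairpin at day 2 (3 libraries) or a control hairpin at day 2 (3 libraries). A control hairpin at day 6 or day 4 was not analysed here, so time under the hairpin, time in culture and time under selection cannot be told apart. Whether the 3 libraries of a day stem from separate cultures is not in the labels; p-values therefore reflect library-to-library spread, which may be technical.

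TUNA is reported to keep mouse embryonic stem cells pluripotent together with the RNA-binding proteins Ptbp1, Hnrnpk and nucleolin. Among the best known programs that cells switch with their surroundings are the hypoxia response, in which the HIF transcription factors raise glycolytic enzymes and oxygen-sensing genes through a short DNA element, and the contractile program, in which serum response factor acts through the CArG box on actin and actin-binding genes. The YAP and TEAD factors act on an overlapping set of cytoskeletal and secreted genes. In embryonic stem cells, FGF4 signalling through ERK moves cells out of the naive state that Nanog, Sox2 and Pou5f1 maintain.

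The 6 libraries held 3682897 to 5652424 reads, as estimated from the smallest steps between values. The rows Rnu3a (U3 small nucleolar RNA), Tex14 and LOC100503663 took 60.4% to 76.9% of them. Outside these 3 rows 1211887 to 1503293 reads remained at day 6 and 1100085 to 2024742 at day 4. TUNA itself (2810011L19Rik in the table) was at 0 in every one of the 12 libraries, and the knockdown and the labels could not be checked on it. Replicates correlated at 0.919 to 0.960 across genes. In a principal component analysis of the 6 libraries, the first component (39.1% of the variance) held day 6 at 20.1 to 27.3 and day 4 at -30.9 to -15.3. The second (29.5%) spread the replicates of each day, with replicate 3 at -30.6 at day 6 and at -23.2 at day 4, while the other 4 libraries lay between 0.0535 and 23.6. Within each day, replicate 3 also had the largest share of reads in the 3 dominant rows, 69.3% at day 6 and 76.9% at day 4; the part of this share in the results was not tested. Without both of these libraries, 206 genes were higher and 199 lower, against 244 and 268 with all libraries.

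**Figure D1:**
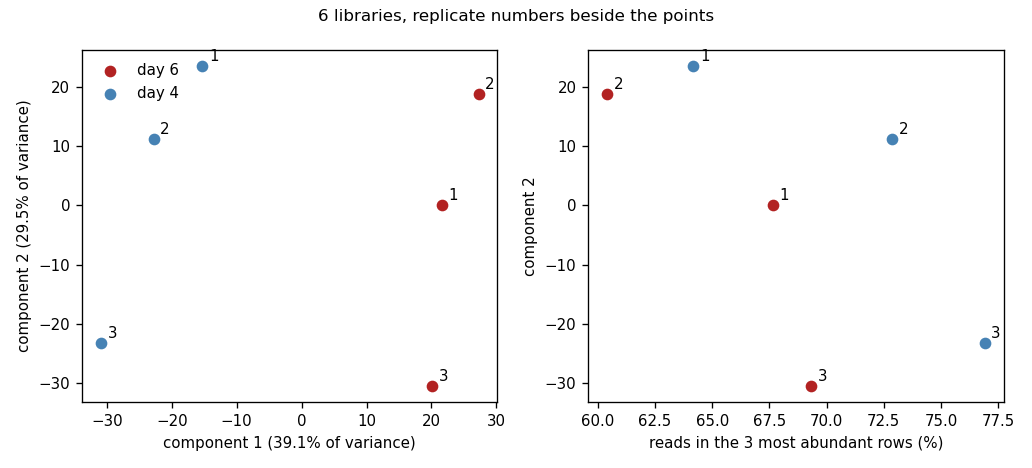
Left, the 6 libraries on the first and second principal components of log2(normalized counts + 1) over 8111 genes, red for day 6 and blue for day 4, with the replicate number beside each point. Right, the second component against the percent of reads in the 3 most abundant rows. Day 6 lies at 20.1 to 27.3 and day 4 at -30.9 to -15.3 on the first component, and replicate 3 of each day lies lowest on the second.

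Between day 4 and day 6 the cells changed in both directions. The largest falls included genes of the hypoxia response and glycolysis together with Ccng2, Ddit4 and Txnip, and the largest rises included genes for actins, actin-binding proteins and keratins. By limma with Benjamini-Hochberg adjustment at 0.05, 244 genes (3.01% of those tested) were higher at day 6 and 268 (3.30%) lower, 512 (6.31%) in all. The median log2 change was 0.96 among the higher genes and -0.99 among the lower ones, against 0.00081 over all 8111 genes. At least 2-fold changes were called for 110 higher and 133 lower genes, and at least 4-fold changes for 27 and 19. The values of day 6 and day 4 did not overlap in 239 of the 244 higher and 265 of the 268 lower genes. Over all 8111 genes they did not overlap in 1923. The 12 largest rises and falls named below were also chosen for it. A lack of overlap in a named gene therefore describes its values and adds no support to its call. Of the called genes, 25 higher ones passed the filter on low values through the day 6 libraries alone and 25 lower ones through the day 4 libraries alone, and such genes had to differ. Leaving out day 6 replicate 1 left 109 higher and 139 lower genes, and leaving out day 4 replicate 2 left 137 and 122. When each library was scaled to the same total outside the 3 dominant rows, the median of all genes moved to 0.23 and 784 genes were higher and 130 lower, so that 85.8% of calls were rises against 47.7% in the main scaling. Between TUNA and control hairpin at day 2, which share no library with this comparison, the genes higher at day 6 had a median log2 change of -0.10 and the genes lower at day 6 one of 0.14, against 0.01 over all genes.

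**Figure D2:**
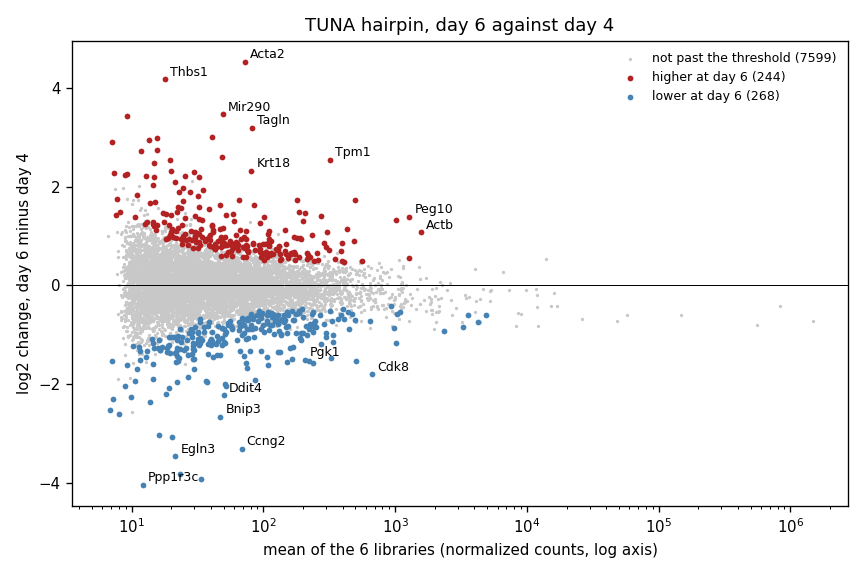
Each point is 1 of 8111 tested genes, with the mean of the 6 libraries in normalized counts on a log axis and the log2 change (day 6 minus day 4) on the other axis. Red points are the 244 genes higher at day 6, blue points the 268 lower, and grey points those that did not pass. Acta2 (4.54) and Ppp1r3c (-4.05) lie at the ends.

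Members of the glycolysis and hypoxia lists were among the falls. None of the 19 tested glycolytic enzymes and transporters was called higher and 10 were lower, with a median log2 change of -0.60. Among 26 tested hypoxia response genes outside glycolysis, none was higher, 9 were lower and 17 did not pass, 6 of the 26 having a positive change, with a median of -0.67, against 3.30% called lower and a median of 0.00081 over all genes. Against the control hairpin at day 2, the glycolytic median was 0.05, 0.78 and 0.06 with the TUNA hairpin at days 2, 4 and 6. In the same order the hypoxia median was -0.02, 0.52 and -0.17. Both lists thus lay higher at day 4 than at day 2 or day 6. These values use the same day 4 and day 6 libraries and are no separate support. In RNA from whole cultures, fewer cells of a kind and less RNA per cell cannot be told apart. Of the 9 lower hypoxia genes, 3 (Vegfa, Egln3 and Ppp1r3c) passed the filter through the day 4 libraries alone, and asking for 10 normalized counts in all 6 libraries left 15 tested hypoxia genes with 3 of them lower. Over all genes 209 of 6331 were lower under that filter. Without day 6 replicate 1, 6 hypoxia genes were lower, against 139 of all 8111 genes. With each library scaled to the same total outside the dominant rows, 8 glycolytic and 8 hypoxia genes were lower, against 130 of all 8111.

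The start regions of these genes often held the letters of the element that HIF binds, ACGTG or GCGTG. The 250 bases before the start site, from RefSeq on GRCm38.p6, were found for 18 of the 19 called members of both lists (26 start sites, Slc2a3 named only). ACGTG on either strand was in 15 of the 26 (57.7%), belonging to 14 genes, against 16.6% of all 32851 start regions in the table. GCGTG was in 13 of the 26 against 28.2% of all. These are matches of letters, read as a description. The lists were drawn up as glycolysis and hypoxia response genes, so a larger share may come from how their members were chosen. Uncalled members were not compared. The regions of the called members with the smallest p are printed below with each ACGTG and GCGTG in capitals, in either orientation (CACGT and CACGC on the opposite strand). The palindrome CACGTG counts on both strands.
Pgk1 (chrX:106186850-106187099, plus strand): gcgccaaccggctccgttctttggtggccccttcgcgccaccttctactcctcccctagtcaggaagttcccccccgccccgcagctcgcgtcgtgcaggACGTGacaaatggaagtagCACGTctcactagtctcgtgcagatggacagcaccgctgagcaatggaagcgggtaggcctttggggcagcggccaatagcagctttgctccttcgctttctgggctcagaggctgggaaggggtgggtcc
Bnip3 (chr7:138909507-138909756, minus strand): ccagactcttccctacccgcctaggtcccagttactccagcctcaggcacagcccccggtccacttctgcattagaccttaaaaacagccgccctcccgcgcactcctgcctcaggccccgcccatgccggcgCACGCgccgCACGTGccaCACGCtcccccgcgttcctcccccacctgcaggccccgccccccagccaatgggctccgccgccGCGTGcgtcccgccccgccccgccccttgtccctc
Pfkp (chr13:6648772-6649021, minus strand): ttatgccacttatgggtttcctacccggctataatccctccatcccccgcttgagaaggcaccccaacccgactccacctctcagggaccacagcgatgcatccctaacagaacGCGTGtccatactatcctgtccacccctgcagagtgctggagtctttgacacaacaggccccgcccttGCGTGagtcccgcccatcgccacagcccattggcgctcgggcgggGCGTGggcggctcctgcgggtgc
Pgk1 held 2 ACGTG matches and no GCGTG, Bnip3 2 ACGTG, both in its palindrome, and 3 GCGTG, and Pfkp 3 GCGTG and no ACGTG.

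Pgk1, the phosphoglycerate kinase of glycolysis whose start region is shown, had 101, 110.0 and 109 normalized counts at day 6, against 318, 312 and 285 at day 4. The days did not overlap (log2 change -1.51 ± 0.15, adjusted p 1.9e-05; errors of log2 changes are standard errors). Pfkp, the platelet-type phosphofructokinase, had 35.8, 28.6 and 44.5 at day 6, against 138, 141 and 134 at day 4 (-1.92 ± 0.21, adjusted p 3.11e-05). All 3 day 6 libraries lay far below day 4, and Pfkp averaged 51.3 ± 5.87 with the TUNA hairpin and 103 ± 28.0 with the control hairpin at day 2 (SD, n = 3). Aldoa, an aldolase, had 130.0, 87.1 and 146 at day 6, against 344, 379 and 339 at day 4 (-1.57 ± 0.17, adjusted p 3.22e-05). Its retrogene copy Aldoart2 changed almost alike, at 98.3, 54.6 and 78.7 at day 6 against 207, 217 and 249 at day 4, but reads of the 2 near-identical sequences may have been split between them. Tpi1, triose phosphate isomerase, had 177, 173 and 152 at day 6, against 419, 403 and 331 at day 4 (-1.19 ± 0.15, adjusted p 0.000126). Slc16a3, the transporter MCT4 that exports lactate, had 20.3, 14 and 25.7 at day 6, against 76.1, 86.5 and 81.7 at day 4 (-2.01 ± 0.29, adjusted p 0.000401). Ldha, the lactate dehydrogenase that makes this lactate, had 683, 728 and 663 at day 6, against 1188, 1209 and 1367 at day 4 (-0.86 ± 0.14, adjusted p 0.00107). In each of these genes every day 6 value was below every day 4 value. The remaining called members, named for completeness, were Pfkl (-1.17), Gpi1 (-1.19), the glucose transporter Slc2a3 (-0.60) and pyruvate kinase Pkm2 (-0.60). Pgm2, a phosphoglucomutase outside the list, had 19, 25.5 and 15.2 at day 6, against 85.0, 93.1 and 72.3 at day 4 (-2.04 ± 0.24, adjusted p 7.5e-05).

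Of the hypoxia genes, Bnip3, a mitophagy receptor of the BCL2 family, had 14.1, 12.5 and 9.78 normalized counts at day 6, against 91.9, 92.7 and 62.6 at day 4 (-2.66 ± 0.28, adjusted p 2.89e-05). The days did not overlap, and the means at day 2 were 10.9 ± 2.75 with the TUNA hairpin and 9.60 ± 1.40 with the control hairpin (SD, n = 3). Ddit4, an inhibitor of the growth kinase mTORC1, had 15.8, 14 and 19.9 at day 6, against 102, 95.7 and 53.3 at day 4 (-2.23 ± 0.27, adjusted p 0.000107). Day 4 replicate 3 was the lowest of its day and still lay above all of day 6. Vegfa, the blood vessel growth factor, had 3.75 and 5.46 at day 6 with the third library listed at 0, against 47.0, 42.5 and 40.3 at day 4 (-3.82 ± 0.50, adjusted p 0.000201). Egln3, an oxygen-sensing prolyl hydroxylase that marks HIF for destruction, had 2.99, 2.34 and 2.84 at day 6, against 41.8, 39.9 and 38.9 at day 4 (-3.47 ± 0.53, adjusted p 0.000698). Both were high in all 3 day 4 libraries and near 0 at day 6. Ppp1r3c, a glycogen-targeting subunit of protein phosphatase, had 2.25 in one day 6 library and was listed at 0 in the others, against 23.2, 27.4 and 20.4 at day 4 (-4.05 ± 0.63, adjusted p 0.000817). Ero1l, an oxidase of protein folding in the endoplasmic reticulum, had 48.1, 57.0 and 58.6 at day 6, against 128, 139 and 149.5 at day 4 (-1.34 ± 0.20, adjusted p 0.000565). The other members past the threshold were Egln1 (-1.49), Fam162a (-1.35) and Ak4 (-0.79). Ak4, an adenylate kinase, averaged 129 ± 19.9 with the TUNA hairpin and 139 ± 27.7 with the control hairpin at day 2, above its values of 45.3, 46.0 and 58.8 at day 6 and of 73.5, 90.4 and 97.8 at day 4.

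**Figure D3:**
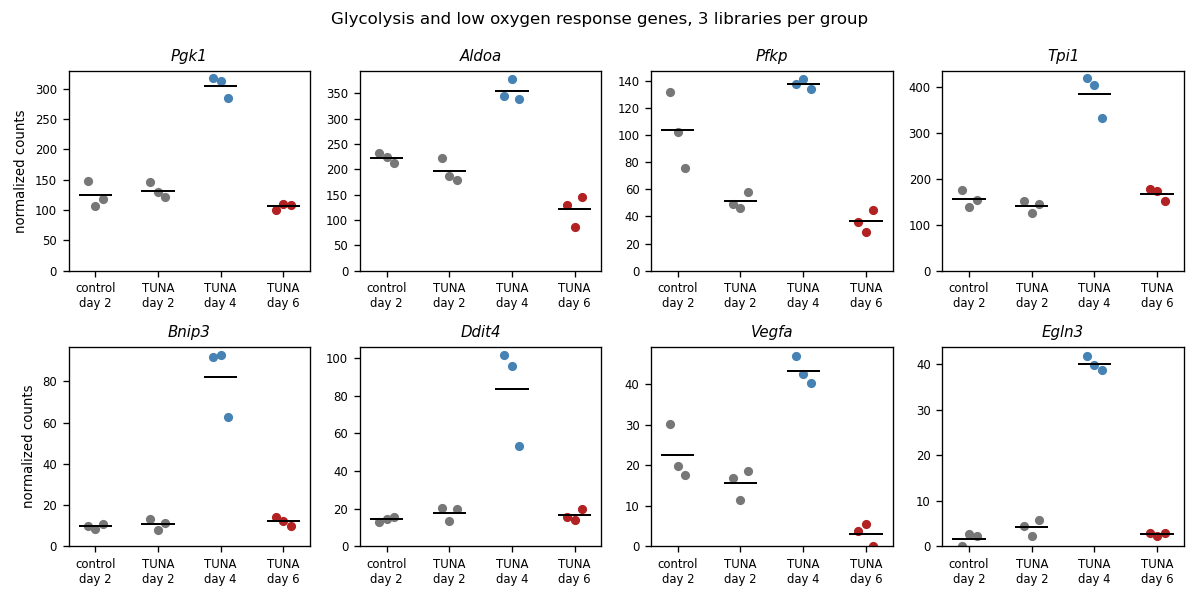
Normalized counts in each of the 12 libraries for 4 glycolytic genes (top) and 4 hypoxia response genes (bottom). The points are libraries and the bars are group means, in the order control hairpin at day 2, then TUNA hairpin at days 2, 4 and 6, with linear axes from 0. In all 8 genes every day 6 value (red) lies below every day 4 value (blue); Bnip3 has 9.78 to 14.1 at day 6 and 62.6 to 92.7 at day 4.

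Collagen hydroxylases and many histone demethylases need oxygen to act. Of 4 tested collagen hydroxylases, 2 were lower and none was higher. P4ha1, a collagen prolyl hydroxylase subunit, had 61.0, 57.4 and 42.4 at day 6, against 179, 161 and 155 at day 4 (-1.62 ± 0.19, adjusted p 6.84e-05). Plod2, a lysyl hydroxylase, had 54.3, 55.8 and 57.7 at day 6, against 171, 176 and 123 at day 4 (-1.45 ± 0.20, adjusted p 0.000259). In both genes the days did not overlap. Of 15 tested histone demethylases 1 was lower, against 3.30% called lower over all genes. It was Jhdm1d (also called Kdm7a), with 72.6, 59.0 and 80.0 at day 6, against 147, 156 and 258 at day 4 (-1.36 ± 0.22, adjusted p 0.00116).

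Ccng2, the unconventional cyclin G2 that slows the cell cycle and a known target of FOXO factors, had the smallest adjusted p of all named genes. It had 15.0, 11.1 and 9.29 normalized counts at day 6, against 123, 108 and 144 at day 4 (-3.31 ± 0.23, adjusted p 5.49e-07), and at day 2 averaged 28.5 ± 5.27 with the TUNA hairpin and 17.2 ± 0.268 with the control hairpin (SD, n = 3). Txnip, a thioredoxin-binding protein that limits glucose uptake, had 103, 132 and 106 at day 6, against 358, 348 and 288 at day 4 (-1.54 ± 0.15, adjusted p 1.53e-05). Day 6 lay far under day 4 in both genes. Among 25 tested p53 target genes, 6 were lower, 19 did not pass and none was higher, with a median of -0.30, against 3.30% called lower over all genes. Of the 25, 4 were lower in the 6 libraries alone and 3 without day 4 replicate 2, where 112 and 122 of all 8111 genes were. Against the control hairpin at day 2, the list's median was 0.30, 0.83 and 0.24 at days 2, 4 and 6. Ccng2 and Ddit4, which is also a hypoxia gene, led this list. Mdm4, an inhibitor of p53, had 114, 112 and 140.0 at day 6, against 256, 258 and 253 at day 4 (-1.07 ± 0.14, adjusted p 0.000259). Sesn1, a sestrin that restrains mTORC1, had 16.2, 16.9 and 19.8 at day 6, against 37.5, 42.0 and 42.6 at day 4 (-1.16 ± 0.28, adjusted p 0.018), and lost its call without day 4 replicate 2 or day 6 replicate 1 (highest adjusted p 0.0745). Trp53inp1 (-0.59, adjusted p 0.0324) and the BH3-only gene Pmaip1 (-0.88, adjusted p 0.0488) passed narrowly. Trp53inp1 missed without day 6 replicate 1 or 2 or day 4 replicate 2 or 3 (highest adjusted p 0.118), and Pmaip1 without day 6 replicate 2 or 3 or day 4 replicate 1 or 2 (highest 0.202).

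The other large falls were in single genes of unlike function. Cdk8, the kinase of the Mediator complex, had 283, 322 and 235 at day 6, against 1509, 1088 and 558 at day 4 (-1.80 ± 0.29, adjusted p 0.0011). The day 4 libraries differed more than 2-fold among themselves and all lay above day 6. Kbtbd11, a Kelch protein, had 29.3, 43.6 and 33.2 at day 6, against 137, 96.9 and 109 at day 4 (-1.67 ± 0.18, adjusted p 3.51e-05). Sdc4, the cell-surface proteoglycan syndecan 4, had 42.0, 42.9 and 26.5 at day 6, against 118, 113 and 101 at day 4 (-1.58 ± 0.19, adjusted p 7.5e-05). The means of Sdc4 at day 2, 101 ± 9.48 with the TUNA hairpin and 94.1 ± 10.3 with the control hairpin, lay near those of day 4.

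Many genes of the contractile program were higher. Of 27 tested smooth muscle and SRF target genes, 16 were higher at day 6 and none was lower, with a median log2 change of 1.12, against 3.01% called higher and a median of 0.00081 over all genes. Of the 27, 26 had a positive change. Acta2 and Cnn1 passed the filter through the day 6 libraries alone. The count was 12 without day 6 replicate 1, against 109 of all 8111 genes, and between 14 and 16 with any other library left out. With 10 normalized counts asked of all 6 libraries, 10 of 21 were higher, against 189 of 6331 over all genes. Fibroblast and feeder markers were near 0 on both days: their summed level was 6.40 to 8.09 normalized counts at day 6 and 3.42 to 11 at day 4, with Col1a1, Col1a2, Col3a1, Dcn, Lum and Postn (6 of 9) listed at 0 in all 6 libraries. Of 6 smooth muscle markers, Acta2, Tagln and Cnn1 are themselves members of the list and higher, and Myh11 and Myocd were listed at 0. The remaining marker, Des, was under the filter and did not rise, with at most 3.764 at day 6 and at most 7.333 at day 4. The sum of the 6 was 260.4 to 352 at day 6 and 23.1 to 28.7 at day 4, and most of the day 6 sum came from Acta2 and Tagln.

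RefSeq start regions were found for 14 of the 16 called contractile genes (19 start sites, Actb and Tagln named only). The CArG box, searched on both strands, was in 4 of the 19 (21.1%), those of Actg1, Cnn2, Myl9 and Vcl, against 1.47% of all 32851 regions. GGAATG, the letters that TEAD factors bind, was in 7 (36.8%) against 12.6%. These too are matches of letters. The list was drawn up to hold SRF targets, so a larger CArG share may come from how its members were chosen. Uncalled members were not compared. The regions of the called members with the smallest p are shown with the CArG box (Cnn2) or GGAATG or its reverse CATTCC (Flna and Tpm1) in capitals.
Flna (chrX:74246535-74246784, minus strand): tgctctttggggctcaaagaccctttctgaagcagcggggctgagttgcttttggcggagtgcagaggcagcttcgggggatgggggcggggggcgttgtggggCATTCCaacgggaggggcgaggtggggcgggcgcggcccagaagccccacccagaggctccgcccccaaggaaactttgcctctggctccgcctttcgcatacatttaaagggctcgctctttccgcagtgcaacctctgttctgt
Cnn2 (chr10:79988350-79988599, plus strand): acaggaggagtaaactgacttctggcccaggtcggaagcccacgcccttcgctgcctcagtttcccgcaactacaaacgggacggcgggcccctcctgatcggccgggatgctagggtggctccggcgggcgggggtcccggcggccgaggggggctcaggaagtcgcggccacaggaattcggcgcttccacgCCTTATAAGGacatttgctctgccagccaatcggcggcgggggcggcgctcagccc
Tpm1 (chr9:67049214-67049463, minus strand): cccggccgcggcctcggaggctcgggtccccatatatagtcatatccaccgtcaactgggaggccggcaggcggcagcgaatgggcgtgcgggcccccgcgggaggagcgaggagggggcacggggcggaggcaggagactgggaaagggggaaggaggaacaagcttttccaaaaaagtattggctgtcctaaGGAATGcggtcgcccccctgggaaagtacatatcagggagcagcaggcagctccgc
Flna and Tpm1 each held 1 GGAATG and no CArG box in this window, and Cnn2 1 CArG box and no GGAATG.

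Flna, filamin A, which crosslinks actin filaments, had 419, 393 and 392 normalized counts at day 6, against 164, 146 and 139 at day 4 (1.42 ± 0.13, adjusted p 9.35e-06). The days did not overlap, and at day 2 Flna averaged 309 ± 23.3 with the TUNA hairpin and 251 ± 20.1 with the control hairpin (SD, n = 3), between the levels of day 4 and day 6. Cnn2, calponin 2, had 77.1, 83.2 and 93.2 at day 6, against 13.3, 10.1 and 16.4 at day 4 (2.60 ± 0.26, adjusted p 1.9e-05). Tpm1, a tropomyosin that winds along actin filaments, had 473, 489.8 and 673 at day 6, against 67.0, 82.8 and 135 at day 4 (2.55 ± 0.27, adjusted p 2.65e-05). Tagln, transgelin, had 146, 158 and 144 at day 6, against 13.0, 22.8 and 12.1 at day 4 (3.20 ± 0.37, adjusted p 5.79e-05). In Cnn2, Tpm1 and Tagln all day 6 libraries were at least 3 times as high as any day 4 library. Acta2, smooth muscle actin, had 151, 171 and 98.5 at day 6, against 9.61, 3.24 and 3.59 at day 4 (4.54 ± 0.68, adjusted p 0.000591), the largest log2 rise of all tested genes. Day 6 replicate 3 was the lowest of its day in Acta2 and the highest in Tpm1. Actg1, cytoplasmic gamma actin, had 682, 523 and 1056 at day 6, against 269.5, 328 and 116 at day 4 (1.73 ± 0.29, adjusted p 0.00164). Unlike Acta2, it was abundant at day 2 as well, at 559.8 ± 60.4 with the TUNA hairpin and 538 ± 62.6 with the control hairpin. Vcl, vinculin of focal adhesions, had 208, 160.1 and 231 at day 6, against 85.1, 94.4 and 91.4 at day 4 (1.12 ± 0.17, adjusted p 0.000582). Lpp, a focal adhesion protein, had 252, 211 and 365 at day 6, against 54.2, 73.4 and 128 at day 4 (1.73 ± 0.28, adjusted p 0.00114). Its gene holds annotated small RNA genes, whose reads cannot be told apart from its own here. The remaining 8 called members, named for completeness, ran from Cald1 (0.63) and Tpm3 (0.84) through Actb (1.09), Tpm4 (1.39), Flnc (1.89), Csrp1 (2.30) and Myl9 (2.55) to Cnn1 (3.44).

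**Figure D4:**
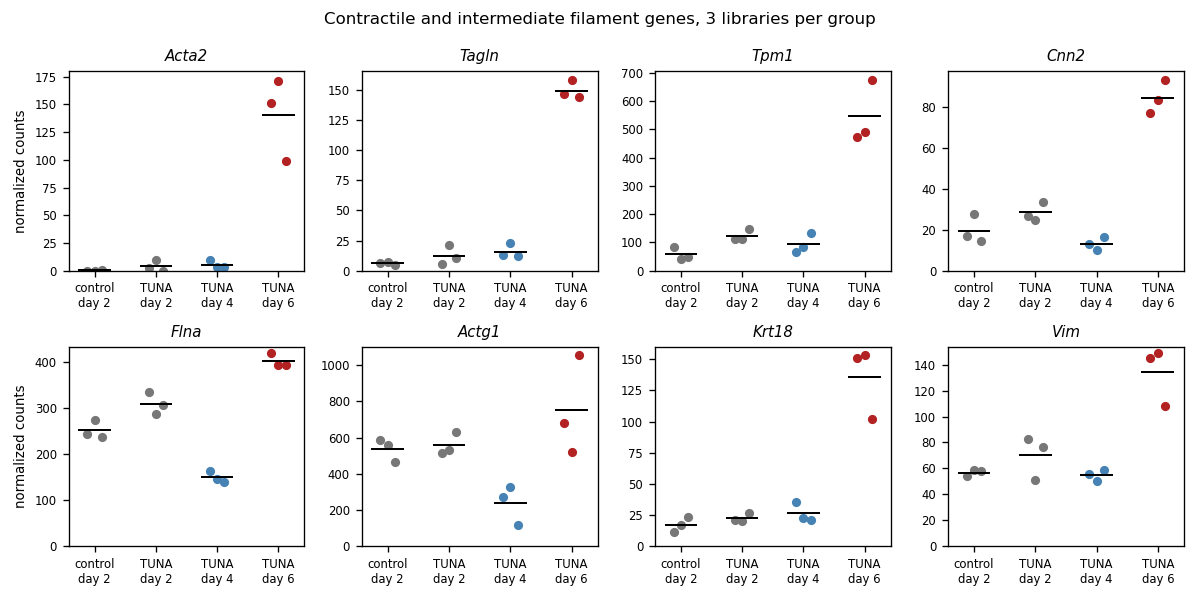
Normalized counts in each of the 12 libraries for 6 contractile genes and the intermediate filament genes Krt18 and Vim. The points are libraries and the bars are group means, in the order control hairpin at day 2, then TUNA hairpin at days 2, 4 and 6, with linear axes from 0. In all 8 genes every day 6 value (red) lies above every day 4 value (blue); Tagln has 144 to 158 at day 6 and 12.1 to 22.8 at day 4.

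Regulators of actin and myosin and genes of other function, all outside the list, were among the largest rises. Wdr1, which helps cofilin take actin filaments apart, had 252, 297 and 283 at day 6, against 95.6, 111 and 87.8 at day 4 (1.49 ± 0.17, adjusted p 4.42e-05). Dapk3, a kinase that phosphorylates the myosin light chain, had 93.4, 61.7 and 73.2 at day 6, against 18.4, 28.6 and 37.8 at day 4 (1.43 ± 0.24, adjusted p 0.0015). In both genes the days did not overlap. Ahnak, a giant scaffold protein under the plasma membrane, had 298, 209 and 418 at day 6, against 103, 91.0 and 128 at day 4 (1.47 ± 0.22, adjusted p 0.000565). Med22, a subunit of Mediator, had 82.0, 70.8 and 107 at day 6, against 27.2, 41.0 and 25.7 at day 4 (1.45 ± 0.23, adjusted p 0.000911). NEWGENE87 (1.74 ± 0.34, adjusted p 0.00514) is a row to which the tables used here give no name. At day 2 Wdr1 averaged 243 ± 43.2 with the TUNA hairpin and 197 ± 37.0 with the control hairpin (SD, n = 3). In the same order Dapk3 averaged 71.3 ± 5.39 and 77.6 ± 15.2, and Med22 81.85 ± 21.3 and 75.5 ± 7.94. The day 2 means of Wdr1, Dapk3 and Med22 lay above all of day 4. Ahnak, at 105 ± 8.31 and 135 ± 26.3, and NEWGENE87, at 36.6 ± 3.30 and 29.1 ± 10.1, were nearer to day 4 than to day 6.

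Genes of intermediate filaments and simple epithelia rose in part. Of 15 tested members, 4 were higher and none was lower, with a median of 0.64, against 3.01% called higher over all genes. Krt18, a keratin of simple epithelia, had 151, 153 and 102 at day 6, against 35.7, 22.8 and 20.8 at day 4 (2.33 ± 0.28, adjusted p 7.31e-05). Its partner keratin Krt8 had 32.9, 39.3 and 27.5 at day 6, against 2.93, 10.3 and 6.11 at day 4 (2.32 ± 0.42, adjusted p 0.00292). Vim, vimentin, had 145, 149 and 108 at day 6, against 55.8, 50.05 and 58.6 at day 4 (1.26 ± 0.20, adjusted p 0.000828). The days did not overlap in any of the 3 genes, and replicate 3 was the lowest at day 6 in each. Anxa1, annexin A1, had 56.3, 25.2 and 44.5 at day 6, against 5.15, 5.41 and 15.8 at day 4 (2.23 ± 0.42, adjusted p 0.00411). The transcription factor Grhl2 of the epiblast list had 25.5, 25.7 and 24.8 at day 6, against 9.77, 12.5 and 7.6 at day 4 (1.29 ± 0.33, adjusted p 0.0258). That call held with day 4 replicate 2 left out but was lost without any other of the 6 libraries (highest adjusted p 0.0888).

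Of 20 tested YAP and TGF-beta response genes, 7 were higher and 1 was lower, with a median of 0.31. Over all genes 3.01% were called higher and 3.30% lower, with a median of 0.00081. Ctgf, Thbs1, Timp3 and Cyr61 passed the filter through the day 6 libraries alone. With 10 normalized counts asked of all 6 libraries, 3 of 13 were higher, with a median of -0.05. Over all genes 189 of 6331 were higher under that filter, with a median of -0.013. Ctgf, a secreted matricellular protein and a classical YAP target, had 26.1, 23.3 and 24.3 at day 6, against 1.30, 2.28 and 3.67 at day 4 (2.96 ± 0.41, adjusted p 0.000273). Thbs1, thrombospondin 1, had 36.8, 30.5 and 36.8 at day 6, against 1.28 and 2.28 with the third library listed at 0 at day 4 (4.18 ± 0.78, adjusted p 0.00349). Both were close to 0 at day 4. Timp3, an inhibitor of matrix proteases, had 11.3, 28.1 and 24.7 at day 6, against 3.26, 2.28 and 1.22 at day 4 (2.73 ± 0.55, adjusted p 0.00605). Jub, the LIM protein Ajuba, had 84.1, 94.7 and 73.2 at day 6, against 41.2, 42.8 and 38.1 at day 4 (1.02 ± 0.17, adjusted p 0.0015). Amotl2, an angiomotin that holds YAP in the cytoplasm, had 68.1, 54.5 and 69.7 at day 6, against 31.8, 31.3 and 37.6 at day 4 (0.91 ± 0.19, adjusted p 0.0078). Skil, a repressor of SMAD signalling, went the other way, with 371, 418 and 340.2 at day 6, against 533, 583 and 563 at day 4 (-0.58 ± 0.13, adjusted p 0.0144), and missed without day 6 replicate 1 or day 4 replicate 2 (highest adjusted p 0.07). Of 18 tested integrin and basement membrane genes 2 were higher and 1 was lower, against 3.01% and 3.30% over all genes. Itga3, the laminin-binding integrin alpha 3, had 23.7, 26.3 and 50.5 at day 6, against 13.7, 10.3 and 8.34 at day 4 (1.5 ± 0.30, adjusted p 0.00575). Itgav, integrin alpha V, was the lower one (-0.55, adjusted p 0.045), which kept its call in 0 of the 6 fits that left out a library (adjusted p up to 0.146).

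**Figure D5:**
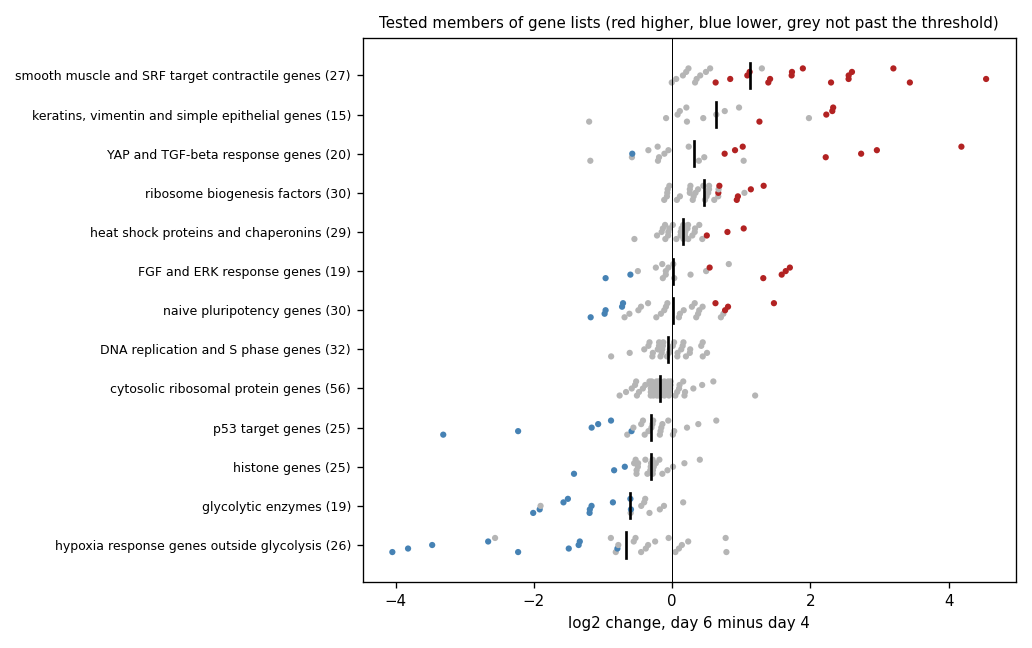
Log2 changes (day 6 minus day 4) of the tested members of 13 gene lists, with the number tested in parentheses. Each point is a gene, red for higher, blue for lower and grey for not past the threshold, and the black bar is the list's median. The contractile list has its median at 1.12 and the hypoxia list at -0.67.

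The naive pluripotency genes split. Of 30 tested members, 4 were higher and 5 lower, against 3.01% called higher and 3.30% called lower over all genes. The median was 0.02. In the 6 libraries alone 1 was higher and 3 lower, and with equal totals 8 were higher and 4 lower. Over all 8111 genes these settings called 97 higher and 112 lower, and 784 higher and 130 lower. Fgf4, the growth factor that primes cells for differentiation, had 109, 95.9 and 101 normalized counts at day 6, against 186, 185 and 232 at day 4 (-0.96 ± 0.14, adjusted p 0.000622). Sox2, the partner of Pou5f1, had 391, 359 and 375 at day 6, against 558, 695 and 596 at day 4 (-0.71 ± 0.13, adjusted p 0.00248); its gene lies within the noncoding Sox2ot. The days did not overlap in either gene. Nanog had 279, 271 and 198 at day 6, against 483, 406 and 345 at day 4 (-0.72 ± 0.16, adjusted p 0.0141). That call was lost without day 4 replicate 1 or 2 (highest adjusted p 0.0546), in the 6 libraries alone (0.0759) and with equal totals (0.068), and the day 2 means were 303 ± 21.4 with the TUNA hairpin and 482 ± 62.3 with the control hairpin. Pou5f1 had 619.7, 679.8 and 518 at day 6, against 527, 531 and 429.9 at day 4, overlapped and did not pass (0.29 ± 0.14, adjusted p 0.254), though it passed with equal totals (0.0258). Pecam1, a cell adhesion molecule, had 23.3, 14 and 23.7 at day 6, against 46.5, 47.9 and 44.0 at day 4 (-1.18 ± 0.21, adjusted p 0.00273). Tdgf1, the Nodal co-receptor Cripto, had 199, 246 and 196 at day 6, against 354, 359 and 388 at day 4 (-0.78 ± 0.15, adjusted p 0.00423). Tdgf1 belongs to the epiblast and Nodal lists and is not one of the 30. Both were lower in every day 6 library. On the rising side, Lin28a, an RNA-binding protein that blocks let-7, had 164, 173 and 165 at day 6, against 93.1, 104 and 89.2 at day 4 (0.81 ± 0.14, adjusted p 0.00164). Gbx2, a homeobox factor downstream of LIF, had 21.8, 31.2 and 23.5 at day 6, against 5.86, 6.84 and 14.6 at day 4 (1.47 ± 0.32, adjusted p 0.0103), and missed without day 4 replicate 2 (0.0519). At day 2 Lin28a averaged 142 ± 9.01 with the TUNA hairpin and 149 ± 10.4 with the control hairpin (SD, n = 3). In the same order Gbx2 averaged 20.9 ± 3.58 and 27.3 ± 6.43. The other called members were Tdh (0.63, adjusted p 0.0133; up to 0.0798 with a library left out) and Stat3 (0.77, adjusted p 0.0299; up to 0.0937), which were higher, and Dppa5a (-0.98, adjusted p 0.0127), which was lower and missed without day 6 replicate 1 or day 4 replicate 2 (highest adjusted p 0.0649). The summed level of 12 embryonic stem cell markers was 2126 to 2581 at day 6 and 2783 to 2972 at day 4, with 1 marker higher and 5 lower.

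The FGF and ERK response genes, many of which are feedback inhibitors switched on by ERK, were higher in 5 of 19 and lower in 2. Over all genes 3.01% were called higher and 3.30% lower. The list's median was 0.02. Spry4, a Sprouty inhibitor, had 107, 108 and 174 at day 6, against 34.3, 33.8 and 54.1 at day 4 (1.64 ± 0.23, adjusted p 0.000273). Dusp6, the phosphatase that inactivates ERK, had 299.5, 325 and 230.2 at day 6, against 89.0, 121 and 132 at day 4 (1.32 ± 0.17, adjusted p 0.000128). Both genes were higher in all 3 day 6 libraries, while the ligand Fgf4 was lower in all 3. At day 2 Spry4 averaged 52.4 ± 6.29 with the TUNA hairpin and 80.1 ± 11.2 with the control hairpin (SD, n = 3). In the same order Dusp6 averaged 306 ± 18.5 and 222 ± 13.3. Dusp4, a nuclear ERK phosphatase, had 42.4, 51.7 and 51.8 at day 6, against 11.7, 12.2 and 25.7 at day 4 (1.58 ± 0.27, adjusted p 0.0015). Myc had 21, 18.7 and 31.3 at day 6, against 5.21, 6.84 and 7.33 at day 4 (1.70 ± 0.29, adjusted p 0.00164), and passed the filter through the day 6 libraries alone. The day 2 means with the TUNA and the control hairpin were 44.5 ± 5.66 and 23.2 ± 2.16 for Dusp4. For Myc they were 15.9 ± 3.11 and 23.4 ± 2.53. Map2k1, the kinase MEK1 upstream of ERK, had 123, 128 and 116 at day 6, against 167, 191 and 204 at day 4 (-0.60 ± 0.14, adjusted p 0.0161). It missed without day 6 replicate 1 or day 4 replicate 2 or 3 (highest adjusted p 0.0657) and with equal totals (0.136). Spred1, another feedback inhibitor, was the fifth higher member (0.54, adjusted p 0.0414) and kept its call in 0 of 6 such fits (adjusted p up to 0.116).

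The Mir290 row, a microRNA gene of the cluster most expressed in mouse embryonic stem cells, rose as well. It had 33.3, 92.5 and 139 normalized counts at day 6, against 2.51, 2.77 and 23.9 at day 4 (3.47 ± 0.56, adjusted p 0.00116). The lowest day 6 library lay above the highest day 4 library, and the spread within each day was wide. The means at day 2 were 222 ± 23 with the TUNA hairpin and 155 ± 22.1 with the control hairpin (SD, n = 3), above both later days. Reads on this row in libraries of total RNA are not a measurement of the mature microRNAs. The mature sequences of the cluster, from RefSeq on GRCm38.p6 (Mir290 matched as Mir290a), show what the locus encodes, with the seed in capitals (bases 2 to 8).
mmu-miR-290a-5p: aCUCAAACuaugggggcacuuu
mmu-miR-290a-3p: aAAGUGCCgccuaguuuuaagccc
mmu-miR-291a-3p: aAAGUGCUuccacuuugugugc
mmu-miR-294-3p: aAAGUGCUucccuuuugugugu
mmu-miR-295-3p: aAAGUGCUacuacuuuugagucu
The sequences miR-291a-3p, miR-294-3p and miR-295-3p share the seed AAGUGCU, and miR-290a-3p differs from it in its last base.

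Of the cell cycle lists, replication came out with no call, against 6.31% called in either direction over all genes. None of 32 tested DNA replication and S phase genes passed in either direction, with log2 changes from -0.88 to 0.50. Of the 32, 6 had an unadjusted p under 0.05, against 1726 of all 8111 genes, and limma-voom called 0. With equal totals 3 of the 32 were higher, against 784 of all 8111. Of 27 mitosis genes 1 was lower, against 3.30% called lower over all genes. It was the checkpoint kinase Bub1, with 104, 111 and 105 at day 6, against 186, 178 and 177 at day 4 (-0.75 ± 0.15, adjusted p 0.00503, and 0.058 with equal totals). Of 15 G1 regulators 2 were higher and 1 was lower, against 6.31% called over all genes. Ccnd1, cyclin D1, had 93.3, 102 and 78.6 at day 6, against 49.4, 34.2 and 40.3 at day 4 (1.13 ± 0.18, adjusted p 0.00117). Its day 2 means were 82.1 ± 7.68 with the TUNA hairpin and 80.9 ± 10.5 with the control hairpin (SD, n = 3). Cdkn1b, the inhibitor p27, had 59.3, 39.7 and 44.4 at day 6, against 96.8, 68.8 and 90.6 at day 4 (-0.83 ± 0.20, adjusted p 0.018). In both genes the days did not overlap, but Cdkn1b missed without day 6 replicate 2 or day 4 replicate 1 or 3 (highest adjusted p 0.0681). Ccne1, cyclin E1, was the other higher regulator (0.49, adjusted p 0.0488; up to 0.192 with a library left out). Of 25 histone genes 3 were lower and 22 had a negative change, with a median of -0.31, against 3.30% called lower over all genes. The count was 7 with the replicate block, 16 with the share of the dominant rows as a covariate (chosen after seeing the data) and 1 in the 6 libraries alone. Over all 8111 genes these settings called 433, 399 and 112 lower. The histone gene with the smallest p was the linker histone H1f0 with 24.0, 21.8 and 25.6 at day 6, against 68.4, 59.3 and 68.4 at day 4 (-1.42 ± 0.21, adjusted p 0.000565). The linker histone Hist1h1c (-0.84, adjusted p 0.0373) and the variant H3f3b (-0.68, adjusted p 0.0357) kept their calls in 1 and 0 of the 6 fits that left out a library, with adjusted p up to 0.129 and 0.0977.

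Of 30 tested ribosome biogenesis factors 6 were higher and none was lower, against 3.01% called higher and 3.30% called lower over all genes. Their median was 0.46. In the 6 libraries alone 1 was higher, without day 6 replicate 1, 3 were, and with equal totals 14 were. Over all 8111 genes the same settings called 97, 109 and 784 higher. Nop2, a methyltransferase of ribosomal RNA, had 288, 268 and 232 at day 6, against 164, 173 and 156 at day 4 (0.67 ± 0.14, adjusted p 0.0071). Polr1b, a core subunit of RNA polymerase I, had 90.0, 76.9 and 98.0 at day 6, against 35.1, 39.6 and 67.6 at day 4 (0.94 ± 0.22, adjusted p 0.0168), and missed without day 6 replicate 1 or day 4 replicate 1 or 2 (highest adjusted p 0.0822). Both were higher in all 3 day 6 libraries. Taf1d, a subunit of the polymerase I initiation factor, had 1085, 1894 and 1419.6 at day 6, against 622, 541 and 550.0 at day 4 (1.32 ± 0.19, adjusted p 0.000423), but its gene contains annotated small nucleolar RNA genes, whose reads cannot be told apart from its own. Rrp1b (0.95), Polr1a (0.68) and Nop16 (1.14) also passed, each in 2 or 3 of the 6 fits that left out a library. None of 56 cytosolic ribosomal protein genes passed (8 had an unadjusted p under 0.05, against 1726 of all 8111 genes, and limma-voom called 0). Their median was -0.18 in the main scaling and 0.06 with equal totals, against 0.00081 and 0.23 over all genes. With equal totals 3 of the 56 were higher, against 784 of all 8111. The difference between these 2 lists was not tested. Of 27 small nucleolar and nuclear RNAs and their host genes 21 had a negative change, with a median of -0.49. Of the 27, 2 were lower, against 3.30% called lower over all genes. They were Snhg11 (-1.27 ± 0.24, adjusted p 0.00368) and Scarna13 (-0.80 ± 0.23, adjusted p 0.0485, up to 0.18 with a library left out). The count of lower ones was 9 with the replicate block, 17 with the share of the dominant rows as a covariate, 6 without day 4 replicate 3, 5 without day 6 replicate 2 and 1 in the 6 libraries alone. Over all 8111 genes these settings called 433, 399, 193, 193 and 112 lower.

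Several single genes of other lists were called, beside 3.01% called higher and 3.30% called lower over all genes. Peg10, an imprinted gene derived from a retrotransposon, had 1835, 1512 and 2228 normalized counts at day 6, against 586, 749 and 772 at day 4 (1.40 ± 0.18, adjusted p 0.000126). It was the 1 imprinted gene of 15 tested that passed, while the growth factor Igf2 had 21, 17.1 and 18 at day 6 against 3.26, 6.84 and 2.44 at day 4 and missed at 0.0508. Igf2 is named after its value was seen. Ddx58, the viral RNA sensor RIG-I, had 82.9, 79.5 and 93.0 at day 6, against 22, 34.3 and 50.2 at day 4 (1.31 ± 0.23, adjusted p 0.00245), the 1 called of 5 tested innate response genes. Both genes were higher in all 3 day 6 libraries. At day 2 Ddx58 averaged 71.1 ± 11.5 with the TUNA hairpin and 87.1 ± 5.82 with the control hairpin (SD, n = 3). In the same order Peg10 averaged 589 ± 16.0 and 663 ± 148. Of 29 heat shock genes 3 were higher, led by the HSP110 chaperone Hsph1 with 103, 142 and 195 at day 6, against 62.4, 73.8 and 70.4 at day 4 (1.04 ± 0.20, adjusted p 0.00426). The others were Hspd1 (0.50, adjusted p 0.0447) and Hspb1 (0.80, adjusted p 0.0488), each kept in 2 of the 6 fits that left out a library. Among 18 BCL2 family genes, Bcl2l1, which encodes the survival protein BCL-XL, had 57.6, 74.8 and 63.3 at day 6, against 33.9, 31.7 and 40.3 at day 4 (0.87 ± 0.19, adjusted p 0.0129), and missed without day 6 replicate 2 or day 4 replicate 2 (highest adjusted p 0.064). Bnip3 and Pmaip1, given above, and Xiap (-0.51 ± 0.13, adjusted p 0.0244; up to 0.0858 with a library left out) were the 3 lower members. The Polycomb members Suz12 (-0.61 ± 0.15, adjusted p 0.0278) and Aebp2 (-0.55 ± 0.14, adjusted p 0.0279) were the 2 called of 22 tested Polycomb and DNA methylation genes, and each lost its call with any of 4 libraries left out.

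Many lists held no called member by limma at an adjusted p of 0.05, against 6.31% called over all genes. At that share a small list can hold no call, and no list was tested as a set. None passed among 40 oxidative phosphorylation subunits, 23 cholesterol synthesis genes, 15 ATF4 and amino acid synthesis genes, 10 Wnt pathway genes and 2 MHC class I genes. Over all 8111 genes 1726 had an unadjusted p under 0.05, and limma-voom on recovered reads called 272 higher and 335 lower. In these lists 2, 7, 1, 2 and 0 genes had such a p, in the same order. There limma-voom called 1 cholesterol synthesis gene higher and none in the other 4 lists. The nearest was Ebp of cholesterol synthesis (1.06 ± 0.31, adjusted p 0.0501), with 20.3, 16.4 and 12.3 at day 6 against 6.51, 5.70 and 9.78 at day 4. Of 21 autophagy and lysosome genes 1 was lower, against 3.30% called lower over all genes. It was Lamp2 (-0.81, adjusted p 0.0405, up to 0.181 with a library left out). Of the proteins reported to bind TUNA, Ptbp1 passed narrowly, at 81.0, 56.6 and 107 at day 6, against 57.6, 35.3 and 38.8 at day 4 (0.87 ± 0.23, adjusted p 0.0334). The days overlapped, and the call was lost without day 6 replicate 1 or 3 or day 4 replicate 2 or 3 (highest adjusted p 0.138). Hnrnpk had 118, 135 and 82.1 at day 6, against 145, 128 and 132 at day 4 (-0.30 ± 0.18, adjusted p 0.368). Ncl, nucleolin, had 384, 362 and 515 at day 6, against 237, 276 and 359.7 at day 4 and did not pass (0.53 ± 0.18, adjusted p 0.0907), though it passed with equal totals (0.0153). The Ncl gene holds small nucleolar RNA genes in its introns, and its mean at day 2 was 3314 ± 492 with the TUNA hairpin and 487 ± 73.4 with the control hairpin.

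Markers of other lineages had low summed levels on both days. The summed level of 9 extraembryonic endoderm markers was 12.8 to 18.7 normalized counts at day 6 and 27.2 to 40.4 at day 4, with Sox17, Afp and Ttr listed at 0 in all 6 libraries. Of 10 tested primitive endoderm genes 1 was higher, against 3.01% called higher over all genes. It was the endocytic receptor Lrp2, with 405, 258 and 586 at day 6, against 134, 171 and 272 at day 4 (1.09 ± 0.26, adjusted p 0.0168), where the days overlapped. Lrp2 missed without day 6 replicate 1 or 3 or day 4 replicate 1 or 2 (highest adjusted p 0.0735). The sum of 5 trophoblast markers was 5.25 to 14.2 at day 6 and 2.28 to 3.91 at day 4, with Elf5, Hand1 and Gata3 at 0. Cdx2, a trophoblast transcription factor, had 5.25, 3.897 and 6.64 at day 6, against 0 in all day 4 and day 2 libraries, and was under the filter. Of the 3 tested genes of the wider trophoblast list 2 were higher, Krt8 and Krt18, which are given above as keratins. The 6 mesoderm markers summed to 1.5 to 3.78 at day 6 and 0 to 2.66 at day 4, with Mixl1, Gsc and Mesp1 at 0. The 6 neural markers summed to 41.7 to 54.0 at day 6 and 20.8 to 27.0 at day 4. Most of the neural difference was Nes, nestin, with 30.8, 33.5 and 20.9 at day 6, against 3.84, 3.42 and 1.22 at day 4 (2.99 ± 0.66, adjusted p 0.0113), which passed the filter through the day 6 libraries alone and missed without day 6 replicate 1 (0.0548). Sox1 and Pax6 of the same list were below 10 normalized counts in all 6 libraries. The part of any of these cell types in the results above was not tested.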

How the data were processed

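RNA-seq of total RNA from 12 libraries of CCE cells was deposited by the authors as 1 table of log2 normalized counts for 37477 gene rows; the submitters' processing notes list BWA, DESeq and the build mm9 and give no version. No deposited log2 value is under 0, which stands for 1 normalized count or less, and 22460 rows were listed at 0 in all 6 libraries. They were converted to linear normalized counts, 0 staying 0. In the 6 libraries, 43.5% to 56.3% of the values below 20 reads were whole reads within 0.02. The other values were not whole reads, for a reason that no source used here gives, so no count test was used. No source used here gives the strand setting of the counting, so overlapping and antisense genes cannot be told apart. Among those named, Pfkp, Tpi1, Aldoa, Txnip, Tagln, Vcl, Ctgf, Thbs1, Timp3, Krt8 and others have an annotated gene on the opposite strand. Cdk8, Sox2, Sesn1 and Lpp have one on the same strand. Small RNA genes are also annotated inside Actg1, Wdr1, Spry4, Pgm2, Snhg11, Ptbp1 and others, with the same limit as for Lpp, Taf1d and Ncl. limma 3.58.1 (R 4.3.3) fitted log2(value + 1) over all 12 libraries, 1 coefficient per group, with an intensity trend (8 residual and 9.03 prior degrees of freedom) and Benjamini-Hochberg adjustment over 8111 genes at 0.05, two-sided. Fold changes on this scale understate low genes. Genes named were the 12 largest rises and falls averaging 50 or more normalized counts without overlap between days, up to 6 called members of each of 39 lists by p (or the 2 with the smallest p where none passed, which are given only where informative), and a fixed set of pluripotency and TUNA genes. The members, lists and rule were chosen with earlier results of these data known. On simulated data (8040 genes, day 6 against day 4) recovery was 100% at 4-fold, 77.6% at 2-fold and 19.7% at 1.5-fold, with 2.22% of calls on unchanged genes. The simulation gave every gene the same dispersion and no spread shared by the genes of a library. Its rates need not hold for the real calls. Alternatives covered scaling, filter, pseudocount, threshold, limma-voom on recovered reads, the 6 libraries alone, a replicate block, each library left out and, added after seeing the data, the dominant rows' share as a covariate and both replicates 3 left out. Figures used matplotlib 3.10.9 in Python 3.11.15. Results on some genes are not reported here.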

Additional observations from a re-analysis of the deposited data

How the results depend on the processing

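Of 95 called genes named by the rule, none changed sign under an alternative that gave it a new estimate (77 had one with 10 normalized counts asked of all 6 libraries; the threshold of 0.01 gives none), and 65 kept their call with each library left out; 28 lost it in the 6 libraries alone, 15 with equal totals and 0 at a pseudocount of 5. From 244 higher and 268 lower genes, a threshold of 0.01 left 81 and 98, the 6 libraries alone 97 and 112, and equal totals outside the 3 dominant rows gave 784 and 130. The share of the dominant rows as a covariate, chosen after seeing the data, gave 375 higher genes. Leaving out 1 library gave 109 to 231 higher and 122 to 252 lower genes. With the replicate number as a block, in the 6 libraries, 364 genes were higher and 433 lower; same-numbered deviations correlated at 0.061, 0.059 and 0.363, and day 6 replicate 2 correlated better with day 4 replicate 1 (0.351), so the numbers were not taken as pairs. The cause of these shifts was not tested. TMM, upper quartile and median of ratios scaling, both pseudocounts, both filters and limma-voom on recovered reads kept both counts within 1.5 times (189 to 272 higher, 209 to 335 lower). Depth outside the dominant rows, 1100085 to 2024742 reads, limits low genes.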
